A study of Mus musculus with 16 samples.

Results

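Type I interferon-stimulated genes were followed in mouse embryonic fibroblasts (MEFs) that have or lack SIMPL, a coactivator of NF-κB encoded by Irak1bp1. The genes were taken from a list of 40 antiviral and regulatory genes known to be induced by interferon, drawn up with earlier results of these data known, and 37 of the 40 were measured, of 19938 genes in all. Isg15 and Oas1g each share their probe set with another gene and Ifi44 was not analysed here, and no dim gene was filtered out. The data are 16 Affymetrix Mouse Gene 1.0 ST arrays in 4 groups of 4: untreated littermate MEFs, littermate MEFs treated with recombinant human TNFα at 10 ng/ml, untreated SIMPL-/- MEFs, and SIMPL-/- MEFs treated in the same way. The labels give the littermate genotype as WT and the other as IRAK1BP1 KO, with the mixed strain C57Bl/6 x 129Sv for every array, and all cultures were of proliferating cells. Treatment lasted 45 min by the labels and 1 h by the study's methods. The methods state 4 separate derivations of MEFs per strain, each from 1 embryo, and no source tells which treated array shares its embryo with which untreated one.

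Type I interferons bind a receptor made of Ifnar1 and Ifnar2, whose kinases Jak1 and Tyk2 phosphorylate Stat2. Stat2 and Irf9 take part in the complex ISGF3, which binds the interferon-stimulated response element in the promoters of many interferon-stimulated genes. Their products sense foreign nucleic acids, block viral replication or damp the pathway again. TNFα acts mainly through NF-κB, and how far this gene set moves with TNFα and with the loss of SIMPL was asked of the same arrays.

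All values are on the log2 scale of the deposited RMA table, in which a difference of 1 is a doubling of signal, and values of different genes are not compared with each other. Array medians lay between 6.667 and 6.764, correlations across genes between replicate arrays were 0.995 or more, and genes varied within a group by a median SD of 0.089 to 0.103. Irak1bp1 stood at 7.65 to 8.21 on the littermate arrays and at 5.08 to 5.62 on the SIMPL-/- arrays, so no array's labels went against the targeted gene, although whether its probes lie in the deleted part was not examined here. Hybridization batches are not given in the sources used here, and genotype and batch cannot be told apart where they coincide. Contrasts came from a single limma model of the 4 groups, and a gene was called at a Benjamini-Hochberg adjusted p under 0.05 over all genes.

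Most interferon-stimulated genes were lower in SIMPL-/- MEFs, whether or not TNFα was given. Without TNFα, 27 of the 37 were called lower, which is 73% of them against 17.6% of all genes tested, and 1, Ifitm3, was called higher against 23.3% of all genes. With TNFα, 30 were called lower, or 81.1% against 18.4% of all genes, and 0 higher against 17.8% of all genes (0 also at an unadjusted p under 0.05). The 26 genes lower in both comparisons are 70.3% of the set, and 14.3% of all genes were lower in both. The groups did not overlap, with all SIMPL-/- arrays the lower ones, for 27 of the genes without TNFα (17.5% of all genes) and for 28 with it (17.2% of all genes). At more than 1.5-fold and an unadjusted p under 0.001 from limma, 12 of the genes were lower without TNFα, where 4.7% of all genes were. By the same rule 17 were lower with TNFα, against 5.39% of all genes.

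The differences between the genotypes ran from −1.86 to 0.15 over the 37 genes without TNFα, with a median of −0.43 beside 0.07 over all genes. With TNFα they ran from −1.98 to 0.09, with a median of −0.53 beside 0.03 over all genes. The mean over the 37 genes was 7.75 ± 0.04 (SD, n = 4 arrays) in littermate MEFs without and 7.75 ± 0.02 with TNFα. In SIMPL-/- MEFs it was 7.23 ± 0.02 without and 7.14 ± 0.07 with TNFα. All values of Mx1, Mx2, Oas1b, Oas3, Ddx60, Cmpk2 and Epsti1 lie below the array medians of 6.667 to 6.764. So do those of Ifit1 and Ifit3 on every SIMPL-/- array.

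**Figure D1:**
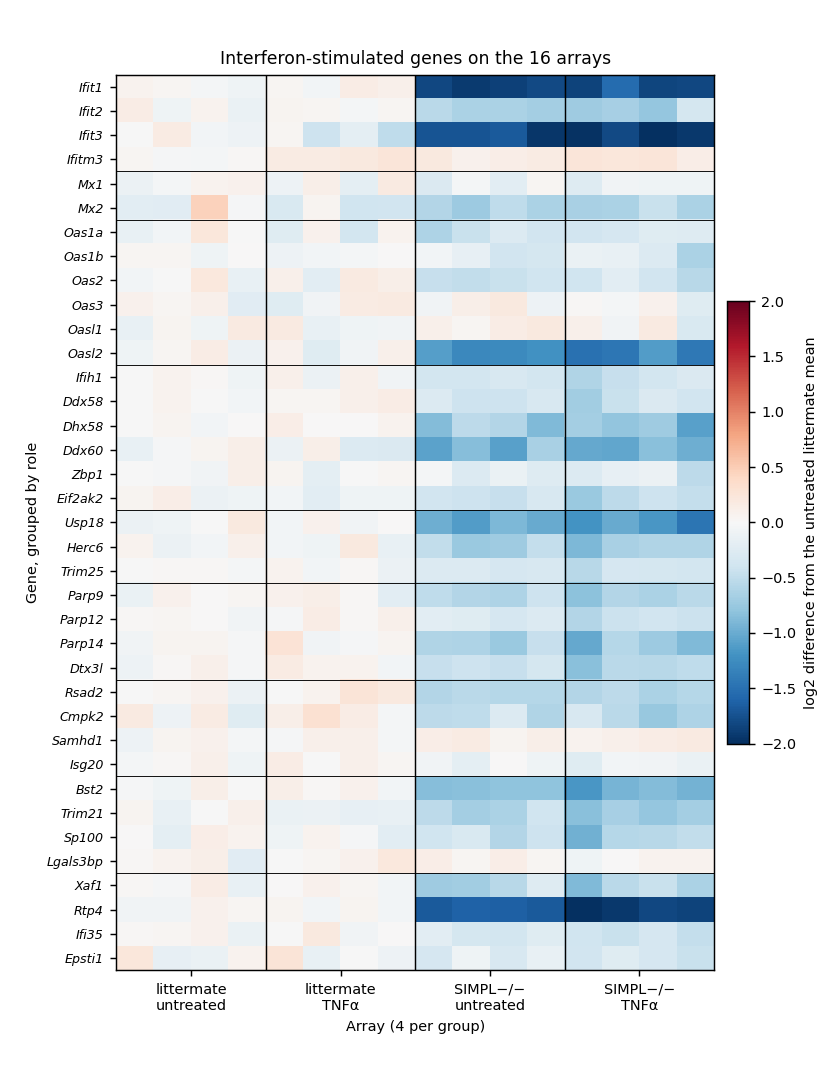
Values of the 37 interferon-stimulated genes (rows, grouped by role) on the 16 arrays (columns, 4 per group), as the log2 difference from the mean of the untreated littermate arrays on a colour scale from −2 (blue) to 2 (red). The 8 SIMPL-/- columns are blue in most rows, deepest for Ifit1, Ifit3, Rtp4 and Oasl2, while the 8 littermate columns stay pale.

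**Figure D2:**
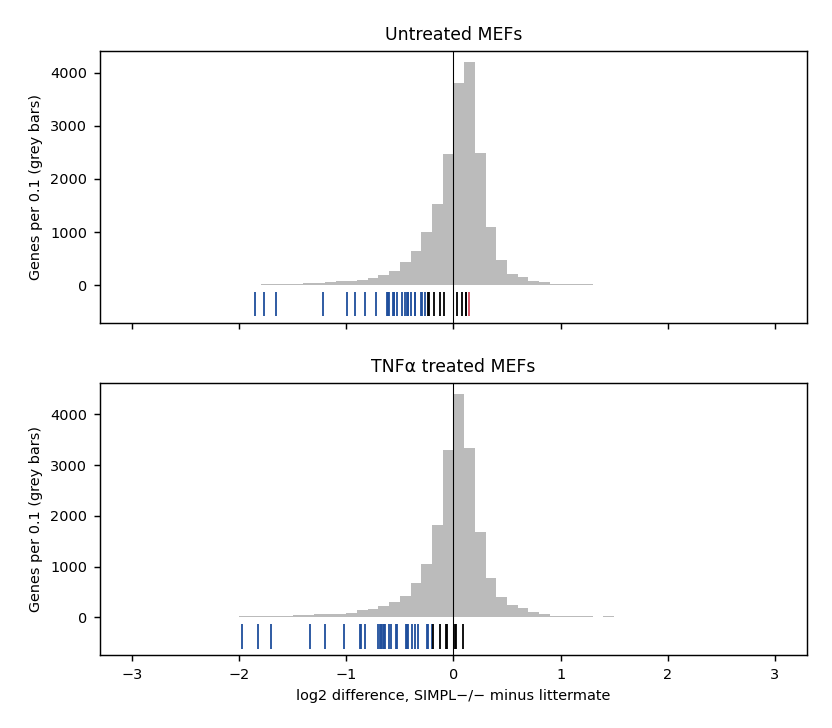
Histograms of the log2 difference between SIMPL-/- and littermate MEFs over all 19938 genes (grey bars, bins of 0.1, genes beyond the axis not drawn), without TNFα above and with TNFα below. Ticks under each histogram mark the 37 interferon-stimulated genes, blue where called lower, red where called higher and black where not called, with medians of −0.43 and −0.53.

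The IFIT proteins, which bind foreign RNA and block its translation, included the gene with the largest difference without TNFα. On the untreated littermate arrays, Ifit1 stood at 8.17, 8.13, 8.06 and 8.01, and on the untreated SIMPL-/- arrays at 6.27, 6.18, 6.22 and 6.29. With TNFα it stood at 8.14, 8.05, 8.24 and 8.19 in littermate and at 6.24, 6.56, 6.25 and 6.27 in SIMPL-/- MEFs. The genotypes were far apart in both conditions, with a single SIMPL-/- array, replicate 2 with TNFα, above the others of its group. The difference was −1.86 without TNFα (SE 0.07, adjusted p = 3.36e-13 from limma), or 3.62-fold lower, and −1.83 with TNFα (SE 0.07, adjusted p = 3.19e-13).

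Ifit3 stood at 7.24, 7.41, 7.18 and 7.14 on the untreated littermate arrays and at 5.51, 5.52, 5.56 and 5.30 on the untreated SIMPL-/- arrays. With TNFα it read 7.28, 6.82, 7.04 and 6.74 in littermate and 5.27, 5.44, 5.03 and 5.32 in SIMPL-/- MEFs. All 8 SIMPL-/- arrays lay below all 8 littermate arrays, by −1.77 without TNFα (SE 0.11, adjusted p = 1.59e-10 from limma) and −1.71 with it (SE 0.11, adjusted p = 2.31e-10). Ifit3 has a close paralogue, Ifit3b, and whether the probes tell them apart was not examined here. Ifit2, its neighbour in the gene order of RefSeq, differed by −0.62 and −0.64, without and with TNFα (adjusted p = 5.95e-06 and 3.75e-06 from limma).

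Ifitm3, a membrane protein that hinders the entry of viruses into cells, did not follow the IFIT genes. It stood at 12.60, 12.53, 12.53 and 12.59 on the untreated littermate arrays and at 12.76, 12.65, 12.70 and 12.73 on the untreated SIMPL-/- arrays, so the SIMPL-/- arrays were the higher ones. The difference was 0.15 (SE 0.05, adjusted p = 0.0223 from limma). That call was lost when arrays were centred on their medians (difference 0.12, adjusted p = 0.0943) and without any one of 4 arrays, littermate replicates 2 and 3 and SIMPL-/- replicates 1 and 4 (adjusted p = 0.0545 to 0.0626). With TNFα the genotypes differed by 0.02 (95% interval −0.08 to 0.12).

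The promoters of the 4 genes with a match and the largest differences are shown because ISGF3 is known to act through a short element near the start site. RefSeq promoters of build GRCm38.p6, from 250 bases before to 50 after the start, were searched on both strands for the core of that element, GAAANNGAAA, whose reverse complement is TTTCNNTTTC. An entry was found for 27 of the 37 genes. Of these, 12, or 44.4%, held the core, against 3.89% of 15614 tested genes with an entry and 3.44% of all 32851 windows. The core was in 9 of the 19 genes with an entry that were lower in both comparisons (47.4%) and in 3 of the other 8 (37.5%). A match is a description of the letters and not of binding. In the promoters below, each on its gene's strand from 5′ to 3′, capitals mark the matches.

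Ifit1 (chr19:34640639-34640938, plus strand), matches beginning 104 and 85 bases before the start: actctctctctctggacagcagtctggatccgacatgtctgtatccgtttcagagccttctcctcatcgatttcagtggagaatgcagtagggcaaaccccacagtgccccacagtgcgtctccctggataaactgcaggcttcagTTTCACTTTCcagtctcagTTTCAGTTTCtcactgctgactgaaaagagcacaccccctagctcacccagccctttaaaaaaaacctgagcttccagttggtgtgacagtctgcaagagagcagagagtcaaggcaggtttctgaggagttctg
Ifit3 (chr19:34583279-34583578, plus strand), matches beginning 156 and 122 bases before the start: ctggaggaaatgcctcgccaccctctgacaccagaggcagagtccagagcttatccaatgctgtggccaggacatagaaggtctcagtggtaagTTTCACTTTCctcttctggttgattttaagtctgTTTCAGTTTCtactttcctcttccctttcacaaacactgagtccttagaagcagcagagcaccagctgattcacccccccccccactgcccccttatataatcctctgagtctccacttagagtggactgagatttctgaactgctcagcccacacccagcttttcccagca
Ddx60 (chr8:61927837-61928136, plus strand), matches beginning 53 and 19 bases before the start: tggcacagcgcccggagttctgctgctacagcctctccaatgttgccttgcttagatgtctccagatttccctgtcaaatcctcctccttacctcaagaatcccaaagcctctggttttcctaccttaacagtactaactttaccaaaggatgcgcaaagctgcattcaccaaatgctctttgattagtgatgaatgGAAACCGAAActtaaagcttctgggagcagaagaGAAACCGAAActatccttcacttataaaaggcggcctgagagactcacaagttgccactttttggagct
Bst2 (chr8:71537423-71537722, minus strand), overlapping matches beginning 130 and 124 bases before the start: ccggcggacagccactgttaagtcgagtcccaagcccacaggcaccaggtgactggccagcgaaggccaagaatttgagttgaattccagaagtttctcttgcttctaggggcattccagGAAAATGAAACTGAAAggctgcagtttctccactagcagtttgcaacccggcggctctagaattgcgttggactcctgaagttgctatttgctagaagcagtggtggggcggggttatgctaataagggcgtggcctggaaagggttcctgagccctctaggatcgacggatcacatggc

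Of these, Ifit1 and Ifit3 hold the core on the opposite strand and share the letters of both matches, TTTCACTTTC and TTTCAGTTTC. Ddx60 holds GAAACCGAAA in both of its matches. Oasl2 and Ifit2, lower by −1.22 and −0.62 without TNFα, had no match in this window, and Ifitm3, Oas1a and Oas3, which were not lower in both comparisons, had one. The promoters of Rtp4, Usp18 and Dhx58 were not analysed here.

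Among the Mx GTPases, which trap viral nucleocapsids and which are defective in many laboratory strains, the results were mixed. Mx2 stood at 4.88, 4.86, 5.55 and 5.06 on the untreated littermate arrays and at 4.49, 4.36, 4.58 and 4.45 on the untreated SIMPL-/- arrays. After TNFα the values were 4.78, 5.14, 4.68 and 4.70 in littermate and at 4.43, 4.45, 4.64 and 4.45 in SIMPL-/- MEFs. Littermate replicate 3 without TNFα stands above its group. The difference was −0.61 without TNFα (SE 0.12, adjusted p = 0.000645 from limma) and −0.33 with TNFα (SE 0.12, adjusted p = 0.0434). The call with TNFα was lost without any one of 8 arrays, with an adjusted p of 0.0517 to 0.167 from limma. It was also lost with quantile normalization (adjusted p = 0.0634 from limma) and with an unmoderated test (adjusted p = 0.0877). Without littermate TNFα replicate 2, the highest of its group, the difference was −0.23 on the log2 scale. All values of Mx2 and Mx1 lie below the array medians of 6.667 to 6.764. Mx1 differed by −0.12 in both conditions (95% interval −0.31 to 0.06 in each) and was not called.

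The 2-5A synthetases make the messenger that activates the antiviral ribonuclease RNase L, and some of the related Oasl proteins lack that activity. Of 6 measured, 3 were lower without TNFα (17.6% of all genes) and 3 with it (18.4% of all genes). Oasl2 stood at 8.84, 8.96, 9.06 and 8.80 on the untreated littermate arrays and at 7.81, 7.63, 7.65 and 7.71 on the untreated SIMPL-/- arrays. After TNFα, values were 8.998, 8.68, 8.85 and 9.02 in littermate and at 7.43, 7.48, 7.79 and 7.49 in SIMPL-/- MEFs. The highest SIMPL-/- array lay well below the lowest littermate array, and the difference was −1.22 without (SE 0.09, adjusted p = 2.41e-09 from limma) and −1.34 with TNFα (SE 0.09, adjusted p = 5.22e-10).

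Oas2 was lower by −0.45 and −0.43 on the log2 scale, without and with TNFα. Oas1a was called without TNFα alone (−0.43, adjusted p = 0.00231 from limma, against −0.19 and 0.151 with TNFα) and Oas1b with TNFα alone (−0.25, adjusted p = 0.046, against −0.24 and 0.0509 without). For both genes the difference between these contrasts was not called. Oas3 and Oasl1, the next genes to Oas2 and Oasl2 in the RefSeq order, were not called, with differences of 0.04 and 0.12 without TNFα (95% intervals −0.18 to 0.25 and −0.09 to 0.32).

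All 6 sensors of nucleic acids were lower with TNFα (18.4% of all genes) and 5 of the 6 without it (17.6% of all genes). Dhx58, also called LGP2, a helicase that tunes the sensing of viral RNA, stood at 6.87, 6.94, 6.84 and 6.89 on the untreated littermate arrays and at 6.02, 6.36, 6.30 and 6.00 on the untreated SIMPL-/- arrays. On the treated arrays it read 7.02, 6.89, 6.89 and 6.96 in littermate and at 6.20, 6.10, 6.17 and 5.80 in SIMPL-/- MEFs. The groups did not overlap, with a wider spread among the SIMPL-/- arrays. The difference was −0.72 without (SE 0.09, adjusted p = 3.07e-06 from limma) and −0.87 with TNFα (SE 0.09, adjusted p = 2.21e-07).

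Ddx60, a helicase of the same antiviral group, stood at 5.76, 5.88, 5.96 and 6.02 on the untreated littermate arrays and at 4.83, 5.06, 4.81 and 5.26 on the untreated SIMPL-/- arrays. With TNFα it stood at 5.79, 6.02, 5.64 and 5.61 in littermate and at 4.88, 4.87, 5.07 and 4.93 in SIMPL-/- MEFs. Here too no SIMPL-/- array reached a littermate array, and the differences were −0.92 (SE 0.10, adjusted p = 6.09e-07 from limma) and −0.82 (SE 0.10, adjusted p = 1.94e-06). All these Ddx60 values lie below the array medians. The RNA sensors Ifih1 (MDA5) and Ddx58 (RIG-I) were each lower by −0.36 on the log2 scale without TNFα, and by −0.43 and −0.53 with it. Eif2ak2, the kinase PKR that stops translation, was lower by −0.39 and −0.43. Zbp1, a sensor of Z-form nucleic acids that can trigger cell death, differed by −0.18 without TNFα (95% interval −0.36 to 0.00) and was called with TNFα (−0.24, adjusted p = 0.0333 from limma).

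The measured genes of the ISG15 system, which attaches a ubiquitin-like protein to targets, were all lower. That is 3 of 3 in both comparisons, against 14.3% of all genes. Usp18 removes ISG15 and also damps signalling at the interferon receptor. It stood at 8.02, 8.05, 8.13 and 8.33 on the untreated littermate arrays and at 7.15, 7.02, 7.24 and 7.13 on the untreated SIMPL-/- arrays. After TNFα the values were 8.08, 8.21, 8.06 and 8.14 in littermate and at 6.93, 7.13, 6.96 and 6.68 in SIMPL-/- MEFs. The 8 littermate arrays were all higher than the 8 SIMPL-/- arrays, by a difference of −0.996 without (SE 0.09, adjusted p = 2.2e-08 from limma) and −1.20 with TNFα (SE 0.09, adjusted p = 1.5e-09). Herc6, the main ligase for ISG15 in the mouse, was lower by −0.60 and −0.67, and Trim25, a ubiquitin ligase that acts on RIG-I signalling, by −0.30 and −0.38.

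All 4 ADP-ribosyltransferase genes and partners were lower in both comparisons (14.3% of all genes). Parp14, which modifies proteins with single ADP-ribose units, stood at 8.14, 8.26, 8.27 and 8.19 on the untreated littermate arrays and at 7.61, 7.60, 7.48 and 7.75 on the untreated SIMPL-/- arrays. On the treated arrays it read 8.50, 8.15, 8.20 and 8.27 in littermate and at 7.19, 7.64, 7.49 and 7.33 in SIMPL-/- MEFs. SIMPL-/- replicate 1 with TNFα was the lowest array, and no SIMPL-/- array reached the littermate range. The difference was −0.61 without (SE 0.09, adjusted p = 2.64e-05 from limma) and −0.86 with TNFα (SE 0.09, adjusted p = 2.85e-07).

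Dtx3l and Parp9, which encode a ligase and its partner and follow Parp14 in the RefSeq gene order, were lower by −0.42 and −0.53 without TNFα and by −0.68 and −0.65 with it. Parp12 stood at 9.31, 9.32, 9.28 and 9.20 on the untreated littermate arrays and at 9.07, 9.04, 8.95 and 9.0001 on the untreated SIMPL-/- arrays. With TNFα it stood at 9.26, 9.43, 9.31 and 9.38 in littermate and at 8.70, 8.84, 8.89 and 8.85 in SIMPL-/- MEFs. The drop was −0.26 without (SE 0.06, adjusted p = 0.00113 from limma) and −0.52 with TNFα (SE 0.06, adjusted p = 4.92e-07).

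Among genes that act on nucleotides and RNA, 2 of 4 were lower without TNFα and 3 of 4 with it (17.6% and 18.4% of all genes). Rsad2, or viperin, which makes a nucleotide that stops viral RNA synthesis, was lower by −0.57 and −0.70. Its neighbour Cmpk2, a nucleotide kinase, was lower by −0.48 and −0.69. The exonuclease Isg20 was called with TNFα alone (−0.20, adjusted p = 0.0162 from limma, against −0.09 and 0.259 without). Samhd1, which breaks down the building blocks of DNA, was not called, at 0.12 and 0.09 (95% intervals −0.01 to 0.24 and −0.03 to 0.21).

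Among the tethering, antibody-binding and nuclear body factors, 3 of 4 were lower in both comparisons (14.3% of all genes). Bst2, or tetherin, which holds budding virus at the cell surface, stood at 10.32, 10.26, 10.46 and 10.34 on the untreated littermate arrays and at 9.50, 9.50, 9.54 and 9.54 on the untreated SIMPL-/- arrays. After TNFα the values were 10.46, 10.37, 10.43 and 10.28 in littermate and at 9.17, 9.40, 9.47 and 9.40 in SIMPL-/- MEFs. The groups were cleanly apart, and the difference was −0.82 without (SE 0.07, adjusted p = 7.93e-09 from limma) and −1.02 with TNFα (SE 0.07, adjusted p = 3.36e-10). Trim21, which binds antibody inside cells, was lower by −0.55 and −0.60, and Sp100, a component of nuclear bodies, by −0.43 and −0.58. The secreted glycoprotein gene Lgals3bp was not called, at 0.08 and −0.07 (95% intervals −0.07 to 0.23 and −0.22 to 0.08).

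Rtp4, which encodes a receptor transport protein with antiviral activity, had the largest difference of the set with TNFα. It stood at 8.52, 8.52, 8.68 and 8.63 on the untreated littermate arrays and at 6.91, 6.96, 6.95 and 6.91 on the untreated SIMPL-/- arrays. On the treated arrays it read 8.65, 8.53, 8.65 and 8.54 in littermate and at 6.29, 6.66, 6.77 and 6.73 in SIMPL-/- MEFs. All 8 SIMPL-/- arrays were low, the 4 treated ones lower still. The difference was −1.65 without TNFα (SE 0.08, adjusted p = 1.18e-11 from limma) and −1.98 with it (SE 0.08, adjusted p = 9.81e-13), or 3.94-fold lower. Xaf1, known for promoting cell death, was lower by −0.55 and −0.65, and Ifi35 by −0.29 and −0.44. Epsti1 was called with TNFα alone (−0.36, adjusted p = 0.00644 from limma, against −0.23 and 0.0706 without).

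**Figure D3:**
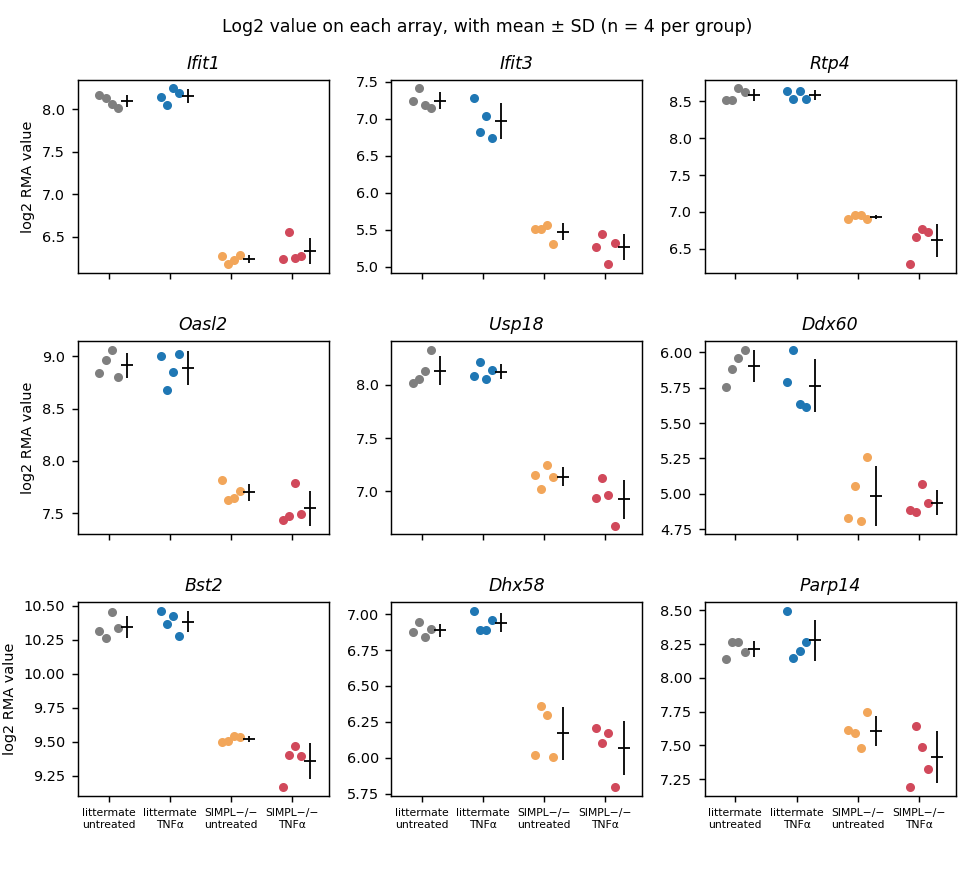
Log2 RMA value on each of the 16 arrays for 9 interferon-stimulated genes, those among the 8 largest called differences between the genotypes without or with TNFα, with each group's mean ± SD (black, n = 4); the vertical scale differs between panels. The SIMPL-/- arrays (orange and red) lie below the littermate arrays (grey and blue) in every panel, with differences without TNFα from −0.61 for Parp14 to −1.86 for Ifit1.

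TNFα itself moved few of these genes. In littermate MEFs the responses lay between −0.27 and 0.19 over the 37 genes, with a median of 0.01, as over all genes. Only Ifitm3 was called, a rise of 0.19 (SE 0.05, adjusted p = 0.0242 from limma) to 12.74, 12.72, 12.76 and 12.81 from the untreated values given above. That is 1 of 37 or 2.7%, the same share as the 2.7% of all genes that rose. Its call was lost without littermate replicates 2 or 3 untreated or replicates 3 or 4 with TNFα, taken singly (adjusted p = 0.0554 to 0.0825). None fell, where 2.45% of all genes did. At an unadjusted p under 0.05 from limma, a cutoff at which shares of all genes were not counted, 1 rose and 2 fell. Those 2, Ifit3 (−0.27, SE 0.11, adjusted p = 0.178) and Mx2 (−0.26, SE 0.12, adjusted p = 0.3), had the largest responses in size. Without littermate TNFα replicate 1, Ifit3 passed at −0.38 (adjusted p = 0.0349).

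In SIMPL-/- MEFs the responses lay between −0.32 and 0.13, with a median of −0.09 beside −0.02 over all genes. None rose, where 1.73% of all genes did, and 1 of 37, Rtp4, fell, against 1.39% of all genes. At an unadjusted p under 0.05 from limma 0 rose and 8 fell, with no share of all genes counted at that cutoff. The response of Rtp4 was −0.32 (SE 0.08, adjusted p = 0.0382 from limma), and the next largest were Sp100 at −0.22 (SE 0.10, adjusted p = 0.286) and Usp18 at −0.21 (SE 0.09, adjusted p = 0.224). Sp100 read 6.80, 6.89, 6.61 and 6.79 untreated and 6.24, 6.62, 6.65 and 6.71 with TNFα, where replicate 1 is the low array. Replicate 1 with TNFα was the lowest of its group for 22 of the 37 genes, and replicates 2, 3 and 4 for 1, 4 and 10. In the other groups the highest such count was 16, for untreated littermate replicate 4. The same count over all genes was not made. Without SIMPL-/- TNFα replicate 1 the response of Rtp4 was −0.21 (adjusted p = 0.0708 from limma) and the median of the set −0.08. The Rtp4 call was also lost without any one of the 4 untreated SIMPL-/- arrays or TNFα replicate 2, with an adjusted p of 0.0705 to 0.0928.

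The responses of the genotypes were also compared directly. None of the 37 genes was called higher (0.0953% of all genes) or lower (0.441% of all genes) in the response of SIMPL-/- against that of littermate MEFs. At an unadjusted p under 0.05 from limma, 0 were higher and 4 lower, where the share of all genes was not counted. The smallest adjusted p was 0.182, for Parp12 (−0.26, SE 0.08). Rtp4 differed by −0.32 (SE 0.12, adjusted p = 0.257) and Mx2 by 0.28 (SE 0.18, adjusted p = 0.514). The estimates ran from −0.32 to 0.28 with a median of −0.11, beside −0.03 over all genes. The lowest limit of their 95% intervals was −0.57, for Rtp4, and the highest was 0.65, for Mx2. Differences of that size were not excluded for those genes at this number of arrays. Limits of the other genes lay within these, such as −0.25 and 0.09 for Trim25. The difference between the genotypes was the lower one with TNFα for 31 of the 37 genes (83.8%), beside 58.7% of all genes, and over the 37 genes the differences without and with TNFα had a Pearson's r of 0.968. These contrasts share no arrays, although they may share embryos.

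**Figure D4:**
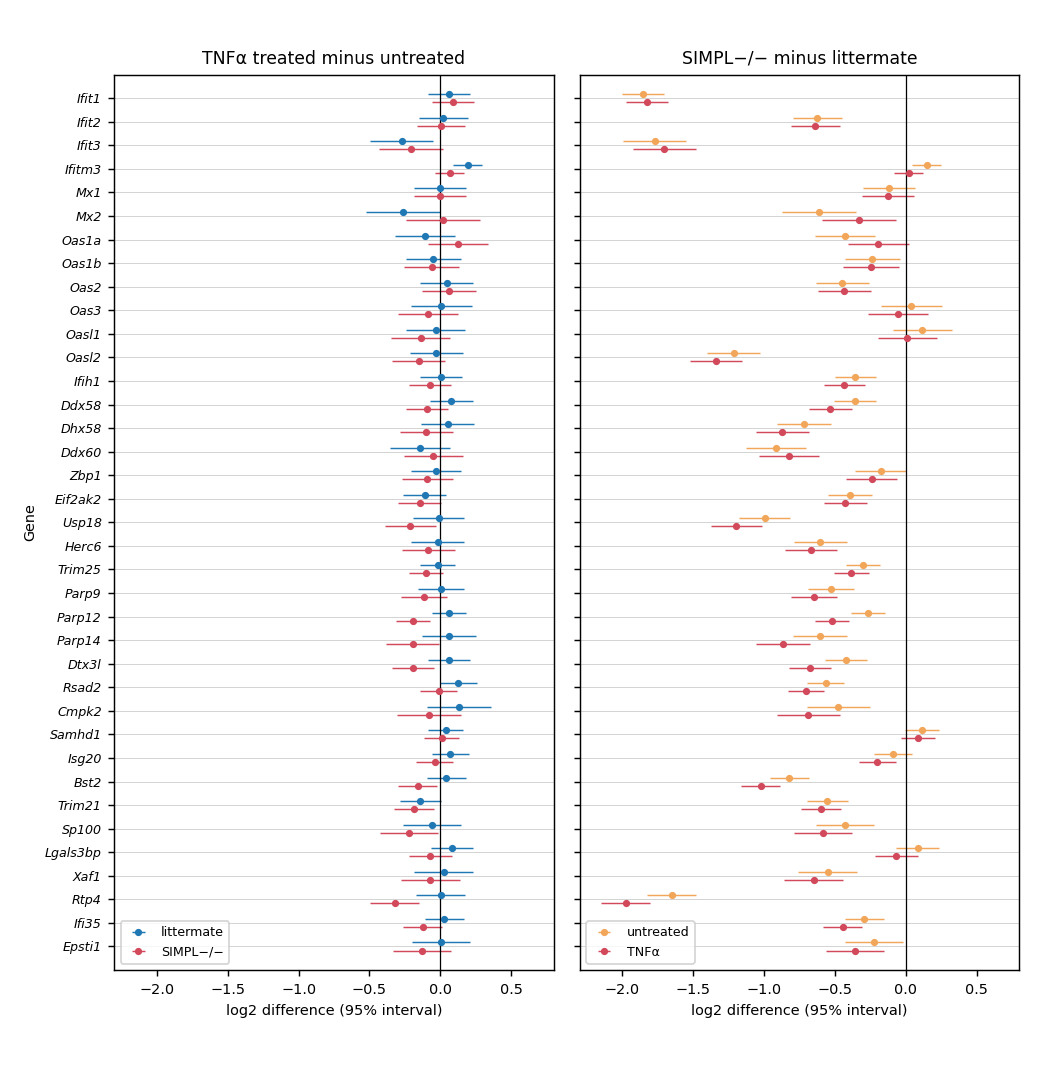
Log2 differences with 95% intervals from limma for each of the 37 interferon-stimulated genes, as the TNFα response in littermate (blue) and SIMPL-/- MEFs (red) on the left and as the difference between the genotypes without (orange) and with TNFα (red) on the right. Responses on the left lie between −0.32 and 0.19, and differences on the right reach −1.98.

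Other genes of the interferon pathway were read from a list of 31, of which 29 were analysed here. Between the genotypes, 11 of the 29 were lower and 4 higher without TNFα (17.6% and 23.3% of all genes), and 15 lower and 0 higher with it (18.4% and 17.8% of all genes). The latter counts were 16 and 1 at an unadjusted p under 0.05 from limma, a cutoff at which shares of all genes were not counted. To TNFα, 9 rose and 1 fell in littermate MEFs (2.7% and 2.45% of all genes), and 5 rose and 2 fell in SIMPL-/- MEFs (1.73% and 1.39%). The response of SIMPL-/- MEFs was the lower one for 3 (0.441% of all genes) and the higher one for 0 (6 and 1 at an unadjusted p under 0.05).

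The ligand Ifnb1, interferon-β, was not called in any contrast. It lay at 4.44 to 4.81 in untreated and 4.77 to 4.79 in treated littermate MEFs, and at 4.63 to 4.84 and 4.68 to 4.97 in SIMPL-/- MEFs. These ranges overlap, and the difference between the genotypes was 0.11 without TNFα (SE 0.08, adjusted p = 0.251 from limma). All Ifnb1 values lie far below the array medians of 6.667 to 6.764, and whether its probe set detects any transcript here was not tested. Of the receptor genes, Ifnar2 was lower by −0.44 without and −0.22 with TNFα. The latter call was lost without littermate TNFα replicate 1 (adjusted p = 0.0542 from limma) or SIMPL-/- TNFα replicate 1, where it was −0.14 (adjusted p = 0.0753). It was also lost with an unmoderated test (adjusted p = 0.093). With TNFα, Ifnar2 rose by 0.40 in SIMPL-/- MEFs (adjusted p = 0.0018 from limma, but 0.107 with an unmoderated test). Its rise of 0.17 in littermate MEFs was not called.

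Stat2 and Irf9 were both lower in SIMPL-/- MEFs. Stat2 stood at 9.75, 9.78, 9.67 and 9.51 on the untreated littermate arrays and at 8.59, 8.47, 8.51 and 8.54 on the untreated SIMPL-/- arrays. With TNFα it stood at 9.34, 9.18, 9.19 and 9.08 in littermate and at 7.89, 8.19, 8.05 and 7.99 in SIMPL-/- MEFs. It fell with TNFα in both genotypes, and no group overlapped another. The difference between the genotypes was −1.15 without (SE 0.07, adjusted p = 3.71e-10 from limma) and −1.17 with TNFα (SE 0.07, adjusted p = 2.61e-10), and the responses were −0.48 and −0.50. Irf9 was lower by −0.77 without and −0.99 with TNFα.

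Irf7, a factor that amplifies interferon production, stood at 7.94, 8.15, 8.29 and 7.998 on the untreated littermate arrays and at 7.49, 7.45, 7.44 and 7.51 on the untreated SIMPL-/- arrays. After TNFα the values were 7.85, 8.12, 8.15 and 7.88 in littermate and at 7.04, 7.06, 7.49 and 7.29 in SIMPL-/- MEFs. The SIMPL-/- arrays were the lower ones throughout, by −0.62 without (SE 0.10, adjusted p = 5.07e-05 from limma) and −0.78 with TNFα (SE 0.10, adjusted p = 3.17e-06). Irf8, a factor of myeloid and lymphoid cells, was lower by −0.61 and −0.73. The largest drop in the pathway was that of Tlr7, an endosomal sensor of RNA known from myeloid and B cells, at −2.78 without (SE 0.14, adjusted p = 1.07e-11 from limma) and −2.67 with TNFα.

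Irf1, a factor that NF-κB and interferons both induce, had the largest TNFα response of the pathway. It rose from 8.46, 8.45, 8.68 and 8.46 to 11.81, 11.86, 11.77 and 11.73 in littermate MEFs, and from 8.38, 8.31, 8.43 and 8.59 to 10.55, 10.66, 10.71 and 10.50 in SIMPL-/- MEFs. The untreated values overlap, and the treated SIMPL-/- arrays stand below the treated littermate arrays. The response was 3.28 in littermate and 2.17 in SIMPL-/- MEFs, with a difference of −1.10 (SE 0.10, adjusted p = 1.01e-05 from limma). A second probe set of Irf1 rose by 0.36 and 0.31, and its responses differed by −0.06 (SE 0.11). The responses of Sting1, an adaptor of DNA sensing, and of the feedback inhibitor Socs3 differed by −0.49 (SE 0.09, adjusted p = 0.0164) and −0.52 (SE 0.11, adjusted p = 0.0341). Sting1 was called higher in untreated SIMPL-/- MEFs, by 0.47 (adjusted p = 1.3e-05 from limma). Its response was 0.30 in littermate MEFs, where it was called, and −0.19 in SIMPL-/- MEFs, where it was not, which left the genotypes −0.02 apart with TNFα. A second probe set of Socs3 gave −0.11 (SE 0.10), and the mean of both −0.31 (adjusted p = 0.184). The Sting1 call was lost without SIMPL-/- TNFα replicate 2 (adjusted p = 0.0522) and the Socs3 call without any one of 11 arrays (adjusted p = 0.0566 to 0.0892).

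Markers of cell types were read on the same arrays, and myeloid, fibroblast and epithelial ones differed most often between the genotypes. Of 30 myeloid markers, 28 were lower and 1, Cd163, higher in SIMPL-/- MEFs without TNFα, and 28 were lower with it, beside 17.6% and 18.4% of all genes called lower, with median differences of −2.02 and −2.13. The mean over the 30 was 8.999 to 9.36 on the untreated and 9.06 to 9.49 on the treated littermate arrays, and 7.15 to 7.27 and 7.17 to 7.26 on the SIMPL-/- arrays. The macrophage receptor gene Mrc1 had the largest difference without TNFα, −3.42, and Cd68 and the complement gene C1qc differed by −2.96 and −2.84. In RNA from whole cultures, fewer cells of a type and less RNA per cell cannot be told apart. The part of these cells in the lower values of the interferon-stimulated genes was not tested.

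Of 12 measured fibroblast markers, 8 were lower and 2 higher in SIMPL-/- MEFs without TNFα, beside 17.6% and 23.3% of all genes. Their mean was 12.21 to 12.30 on the untreated littermate and 11.81 to 11.87 on the untreated SIMPL-/- arrays. The changes were uneven. Between these groups Lum fell most, from a mean of 11.13 to 8.26, followed by Dcn, from 12.74 to 11.72. Col1a1 went from 14.38 to 14.14, and Thy1 rose from 11.61 to 12.34. Of 6 epithelial markers 4 were higher in SIMPL-/- MEFs without TNFα (23.3% of all genes), with list means of 6.28 to 6.44 against 7.25 to 7.71, and the keratin genes Krt8 and Krt18 differed by 1.64 and 2.13. Of 7 measured lymphoid markers 0 were called without TNFα, with estimates of 0.08 to 0.21, and 0 had an unadjusted p under 0.05 from limma. Among 6 endothelial markers 1 was higher without TNFα. With TNFα, 8 fibroblast markers were lower and 2 higher, and 3 epithelial markers were higher. There, 2 endothelial markers were higher and 1 lower, and 0 lymphoid markers were called, beside 18.4% of all genes lower and 17.8% higher. The part of these differences in the values of the interferon-stimulated genes was not tested either.

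**Figure D5:**
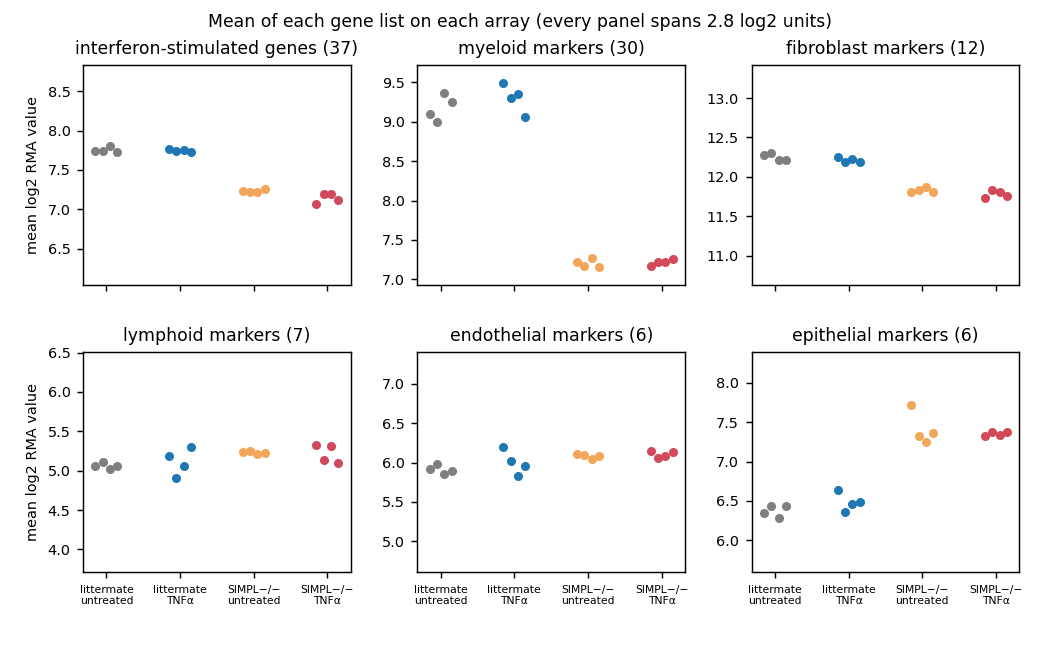
Mean log2 RMA value over each list of genes on each of the 16 arrays, by group, with the number of genes in brackets and 2.8 log2 units on every vertical axis. The interferon-stimulated genes drop from 7.75 to 7.23 between the untreated genotypes, beside a drop from 9.18 to 7.20 for the myeloid markers and a rise from 6.38 to 7.41 for the epithelial markers.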

How the data were processed

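RNA of 16 cultures was hybridized to Affymetrix Mouse Gene 1.0 ST arrays. The authors deposited log2 values made with RMA in Partek per the labels, without versions, while the study's methods name Affymetrix Microarray Suite. RMA adjusts background, matches the arrays' distributions and sums probes of a set, which can compress small differences and hide a global shift. Probe sets were named from the platform annotation and RefSeq: of 28853, 21789 had 1 gene symbol, 1621 several and 5443 none. The brightest of a gene's probe sets with 1 gene symbol was used, which gave 19938 genes, and each of the 37 members measured has a single such set. Oas1a and Sp100 also have a probe set shared with other genes, Oas1g for Oas1a, which was not used.

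A model with a mean per group was fitted to all arrays with limma 3.58.1 in R 4.3.3 (12 residual and 6.188 prior degrees of freedom), and p-values of 5 two-sided contrasts were adjusted over all genes (Benjamini-Hochberg). The procedure was tested on simulated data. Intervals are 95% intervals. The thresholds the study gives for induced genes, more than 1.5-fold and p under 0.001 (taken here as unadjusted), were counted too. Promoters were searched with Python 3.11.15. The p-values measure the spread between arrays, whose number limits the precision.

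Per-array values are given for the up to 8 called members with the largest differences in a contrast, or the 3 largest where fewer than 3 were called, and for Irf7. Those of Stat2 and Irf1 were added after their values were seen. Pathway genes named are those called with the largest differences, with Ifnb1, Stat2 and Irf9. Members, lists and rules were chosen with earlier results of these data known. Alternatives were centred arrays, quantile normalization, no dim genes, averaged probe sets, moderation with trend and robust, array weights, the compared arrays alone, an unmoderated test, other thresholds, and each array left out. Their use on pathway genes, and the counts of lowest arrays, were chosen after seeing the data.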

Additional observations from a re-analysis of the deposited data

Results flagged for a closer look

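In 4 of the 52 sets of 4 arrays examined, over 13 interferon-stimulated genes, 1 array stood far from the other 3 by Dixon's ratio, above its 95% critical value. Chance flags about 1 in 20 sets. Ifit3 in untreated SIMPL-/- MEFs was 5.30 on replicate 4, with the nearest array at 5.51. In TNFα treated SIMPL-/- MEFs, Ifit1 was 6.56 on replicate 2 (nearest 6.27), Mx2 was 4.64 on replicate 3 (nearest 4.45) and Oasl2 was 7.79 on replicate 3 (nearest 7.49).

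The TNFα responses of 3 pathway genes outside the set differed between the genotypes by a test of the difference itself in limma. The response in SIMPL-/- minus that in littermate MEFs was −1.10 for Irf1 (adjusted p = 1.01e-05), −0.49 for Sting1 (adjusted p = 0.0164) and −0.52 for Socs3 (adjusted p = 0.0341), on the log2 scale. Sting1's own response in SIMPL-/- MEFs was −0.19 and was not called. The second probe sets of Irf1 and Socs3 gave −0.06 and −0.11.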

How the results depend on the processing

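No paired analysis was possible because no label pairs untreated with treated arrays. The number of genes called between the genotypes moved by more than 1.5 times only at more than 1.5-fold with an unadjusted p under 0.001, from 28 to 12 without TNFα and from 30 to 17 with it. That alternative changes the fold and the p asked for together, and their parts were not tested. Leaving out single arrays gave 27 to 29 and 26 to 30. The count of TNFα responses called in littermate MEFs, 1, was 0 with the compared arrays alone, at an adjusted p under 0.01 and at the same fold and p, and 0 to 2 without single arrays. In SIMPL-/- MEFs, 1 became 0 under the same alternatives, with centred arrays and with an unmoderated test, became 2 without dim genes or with trend and robust moderation, and was 0 to 1 without single arrays. Leaving out dim genes left 10512 genes and 26 of the 37 tested. Quantile normalization called Parp12 in place of Rtp4. The cause was not tested. The difference between the responses gave 0 calls in every alternative run, 0 to 0 without single arrays, and a fit of compared arrays alone could not be had for it.

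Of 65 values of named genes of the set, 27 were called, and 612 of their 642 alternatives kept the call and direction. Averaging probe sets left the estimates of these genes unchanged. So did leaving out an array outside a contrast, which moved only the spread used. The share that kept the call thus depends on the alternatives chosen. Of 890 alternatives of the uncalled values, 4 passed, and 0 called values changed sign. For pathway genes, 686 of 717 alternatives kept the call, 10 of 706 passed, and 0 changed sign. The difference between responses of Myd88, −0.38 (adjusted p = 0.0621), passed under 6 of its alternatives, with an adjusted p of 0.00728 to 0.0316 from limma. The number of arrays limits what could be called.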
